A study of Mus musculus with 10 samples.

Results

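Messenger RNA of the genes that copy DNA and divide the cell was measured in dendritic cells sorted from mouse spleen. The list holds 38 genes of the 53379 in the count tables, 13 for DNA replication and 25 for mitosis, chosen by name and matched through their Ensembl identifiers. All 38 matched, passed the filter on low counts that left 14528 genes, and had at least 1 count in each of the 10 libraries.

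The cells came from C57BL/6 mice of 16 weeks in a series on autophagy-deficient dendritic cells and atherogenesis, and the libraries form 4 groups by subset label and genotype. CD11b KO (n = 2) and CD11b WT (n = 3) carry the subset label CD11b, and CD8 KO (n = 2) and CD8 WT (n = 3) carry the label CD8. KO mice are Atg16l1 -/- and WT mice are Atg16l1 +/+, where Atg16l1 encodes a scaffold for the attachment of LC3 to the autophagosome membrane. Enriched on CD11c beads, the cells were then sorted for high MHC class II and CD11c, and each library is from the spleen of an individual mouse. Which part of Atg16l1 was deleted, what drove the deletion, and whether all groups carried an atherogenic background or diet are not given in the sources used here. Libraries are named below by label, genotype and number.

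Gene counts were 9467704 to 13768884 per library, and no pair of libraries was identical. Atg16l1 stood at 1.73 to 3.31 CPM (gene counts relative to the library total, with library sizes scaled by TMM) in the 4 KO libraries and at 13.3 to 32.7 CPM in the 6 WT libraries. Marker transcripts ran against the subset label in each of the 10 libraries. Those labelled CD11b had 448 to 578 CPM of Cd8a and 1.58 to 2.73 CPM of Itgam, the gene of CD11b, while those labelled CD8 had 0.905 to 5.87 CPM of Cd8a and 76.1 to 104 CPM of Itgam. Labels are kept as given, so a direction between subsets is one between labels and does not name the sorted cell. The dendritic cell genes Flt3 and Zbtb46 were present in every library, at 290.5 CPM or more and 147 CPM or more.

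Cells that divide first load the MCM helicase at replication origins, unwind and copy the DNA during the synthesis phase, and then condense, attach and separate the chromosomes in mitosis. Genes of the first step are switched on by E2F factors once the retinoblastoma proteins are released, and genes of the mitotic step by the MuvB complex with B-Myb and FoxM1, which acts through the CHR element. Conventional dendritic cells live briefly, and their precursors, with a fraction of the cells in the spleen itself, still divide. In sorted populations, fewer cycling cells and less RNA per cycling cell cannot be told apart.

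RefSeq promoter sequences were at hand for 31 of the 38 genes, 11 of the replication list and 20 of the mitotic list. Of the 250 bases before the start site, 4 of 11 replication promoters and 1 of 20 mitotic promoters held an E2F site written as TTTNNCGC, against 4.94% of 20426 promoters. A CHR written as TTTGAA or TTCGAA stood in 2 of 11 replication and 8 of 20 mitotic promoters, against 16.59% of all promoters. CCAAT boxes, written as CCAAT, stood in 9 of 11 and 18 of 20, against 35.18%. Both CHR and CCAAT box were found in 2 of 11 replication and 8 of 20 mitotic promoters, against 5.99% of all. Both strands were searched. A match describes the letters and does not show binding.

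The 200 bases upstream of 4 genes are printed as examples, so that the motifs can be read. These 4 differ between the subset labels in the comparisons that follow, as do Nusap1, Pcna and Ccna2, which are not printed. In the longer stretch searched above, Nusap1 held no E2F site, CHR or CCAAT box, and Pcna held only 1 CCAAT box. No promoter sequence was at hand for Ccna2. The printed 4 therefore do not stand for all genes that differ. Capitals mark E2F sites, CHR elements and CCAAT boxes on either strand, and overlapping matches run together. The lines read 5′ to 3′ on the strand of the gene and end at the base before the start site (RefSeq, GRCm38.p6).
Mcm6, minus strand, chr1:128359706-128359905: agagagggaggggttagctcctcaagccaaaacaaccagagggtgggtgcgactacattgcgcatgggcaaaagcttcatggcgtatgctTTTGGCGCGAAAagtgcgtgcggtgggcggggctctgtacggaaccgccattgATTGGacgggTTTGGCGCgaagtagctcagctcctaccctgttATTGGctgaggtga
Cenpf, minus strand, chr1:189688087-189688286: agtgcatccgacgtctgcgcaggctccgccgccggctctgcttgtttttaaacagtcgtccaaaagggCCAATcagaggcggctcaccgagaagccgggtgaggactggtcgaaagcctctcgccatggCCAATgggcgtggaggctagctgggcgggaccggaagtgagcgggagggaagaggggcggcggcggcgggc
Bub1b, plus strand, chr2:118598011-118598210: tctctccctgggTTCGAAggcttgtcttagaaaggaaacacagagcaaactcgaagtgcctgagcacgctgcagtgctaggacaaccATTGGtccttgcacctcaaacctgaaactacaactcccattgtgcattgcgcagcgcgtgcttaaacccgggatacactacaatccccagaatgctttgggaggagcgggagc
Top2a, minus strand, chr11:99024190-99024389: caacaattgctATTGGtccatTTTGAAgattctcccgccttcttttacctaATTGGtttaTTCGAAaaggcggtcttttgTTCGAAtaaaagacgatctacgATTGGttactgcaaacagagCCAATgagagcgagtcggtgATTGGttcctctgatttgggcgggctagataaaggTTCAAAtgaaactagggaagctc
Mcm6 shows 3 E2F sites and no CHR in these 200 bases. Top2a shows 4 CHR elements and 5 CCAAT boxes, Bub1b shows 1 of each, and Cenpf shows 2 CCAAT boxes and no CHR.

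The helicase and its partners were well covered in all groups. Levels per kb divide by all annotated exons of a gene merged, so their order between genes also depends on the annotated length. Among the replication genes, Mcm3, a subunit of the MCM helicase, had the highest level per length, with 43.9 CPM per kb of exon on average over the 10 libraries, above 94.8% of the 14528 genes tested. The other helicase subunits had lower levels, with 26.1 CPM per kb for Mcm6, 24.4 for Mcm4, 23.2 for Mcm5, 13.5 for Mcm2 and 11.8 for Mcm7. Summed over Mcm2 to Mcm7, the level was 574 and 625 CPM in CD11b KO 1 and 2, and 661, 569.7 and 722 CPM in CD11b WT 1 to 3. It was 565 and 595 CPM in CD8 KO 1 and 2, and 563, 513.5 and 739 CPM in CD8 WT 1 to 3.

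The enzymes that make deoxynucleotides spanned a wide range. Rrm2, the small subunit of ribonucleotide reductase, had 13.1 CPM per kb and Rrm1, the large subunit, had 6.68 CPM per kb. In mean CPM over the 10 libraries the order was the reverse, at 36.3 for Rrm2 and 73.5 for Rrm1. Their annotated exons hold 2771 and 11012 bases. Tyms, thymidylate synthase, and Tk1, thymidine kinase, had 2.12 and 2.08 CPM per kb. Pcna, the sliding clamp of the DNA polymerases, had 10.8 CPM per kb, and Uhrf1, which reads hemimethylated DNA behind the fork, had 12.8 CPM per kb. Ccne2, a partner of Cdk2 at the start of synthesis, was the lowest replication gene at 1.52 CPM per kb.

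Mki67, a protein that coats mitotic chromosomes and a standard mark of cycling cells, had the highest level per length of the 38, with 58.8 CPM per kb, above 96.4% of genes tested. It stood at 509.7 and 558 CPM in CD11b KO 1 and 2, at 554, 482 and 591 CPM in CD11b WT 1 to 3, at 690.5 and 595 CPM in CD8 KO 1 and 2, and at 579.5, 629.9 and 723 CPM in CD8 WT 1 to 3. KO and WT overlapped at both labels, and the 2 KO groups did not overlap each other. Top2a, the topoisomerase that untangles sister chromatids, came next among mitotic genes with 29.6 CPM per kb. Its levels were 225 and 239 CPM in CD11b KO, 265, 236 and 262 CPM in CD11b WT, 299 and 295 CPM in CD8 KO, and 248, 266 and 335 CPM in CD8 WT. Both CD11b KO libraries were below both CD8 KO libraries.

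Genes of the centromere and its checkpoint covered much of the range. Cenpa, the histone variant of centromeres, had 17.4 CPM per kb, Bub1b, a checkpoint kinase, 14.6, Cenpe, a kinetochore motor, 6.96, Cenpf, a kinetochore protein, 4.86, and Bub1, another checkpoint kinase, 2.76. Of the chromosomal passenger complex, Aurkb had 7.39, Birc5 6.48 and Cdca8 4.93 CPM per kb. The spindle genes Tpx2, Kif11, Nusap1, Aurka, Hmmr and Stmn1 had 12.7, 10.2, 9.69, 5.18, 3.10 and 2.58 CPM per kb, and the cytokinesis motors Kif23 and Kif20a had 12.7 and 5.67. Plk1, a mitotic kinase, had 4.26 CPM per kb, while Ube2c and Cdc20, which work with the anaphase-promoting complex, had 10.2 and 5.21.

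The mitotic cyclins differed widely among themselves. Ccnb2 had 14.2 and Ccna2 11.7 CPM per kb, while their kinase Cdk1 had 3.00. Ccnb1 was the lowest of the 38 at 0.399 CPM per kb, above 15.2% of genes tested, and rested on 5 to 40 counts per library. Ccnb1 also shares 23.4% of its stretches of 50 bases with genes elsewhere in the annotation, most of them in Ccnb1-ps, and reads that map to several places were given to no gene. The same share was 19.1% for Pcna, 17.9% for Stmn1, 16.5% for Mcm7, 15.4% for Uhrf1, 10.4% for Cdc20, 6.56% for Plk1, 5.72% for Tyms and under 5% for the remaining 30, so levels of these 8 genes rest on part of each transcript. Comparisons of 1 gene between libraries use the same part.

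Levels of the 38 genes varied little between libraries. For 25 of 38 (65.8%) the highest of the 10 libraries was under 2 times the lowest, against 30.7% of all genes tested, and the median ratio of highest to lowest was 1.79, against 3.09. By list, 10 of 13 replication genes and 15 of 25 mitotic genes stayed under 2 times. The largest ratio was 7.50, in Ccnb1, followed by 2.88 in Cdc20, 2.87 in Nusap1 and 2.86 in Ccne2. Genes with few counts vary more by counting alone, so the list and all genes are not matched in this respect. Of the 38 genes, 31 had a level per length above that of 50% of genes tested. The same limit holds for the intervals and sizes of change that are set beside all genes below.

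**Figure D1:**
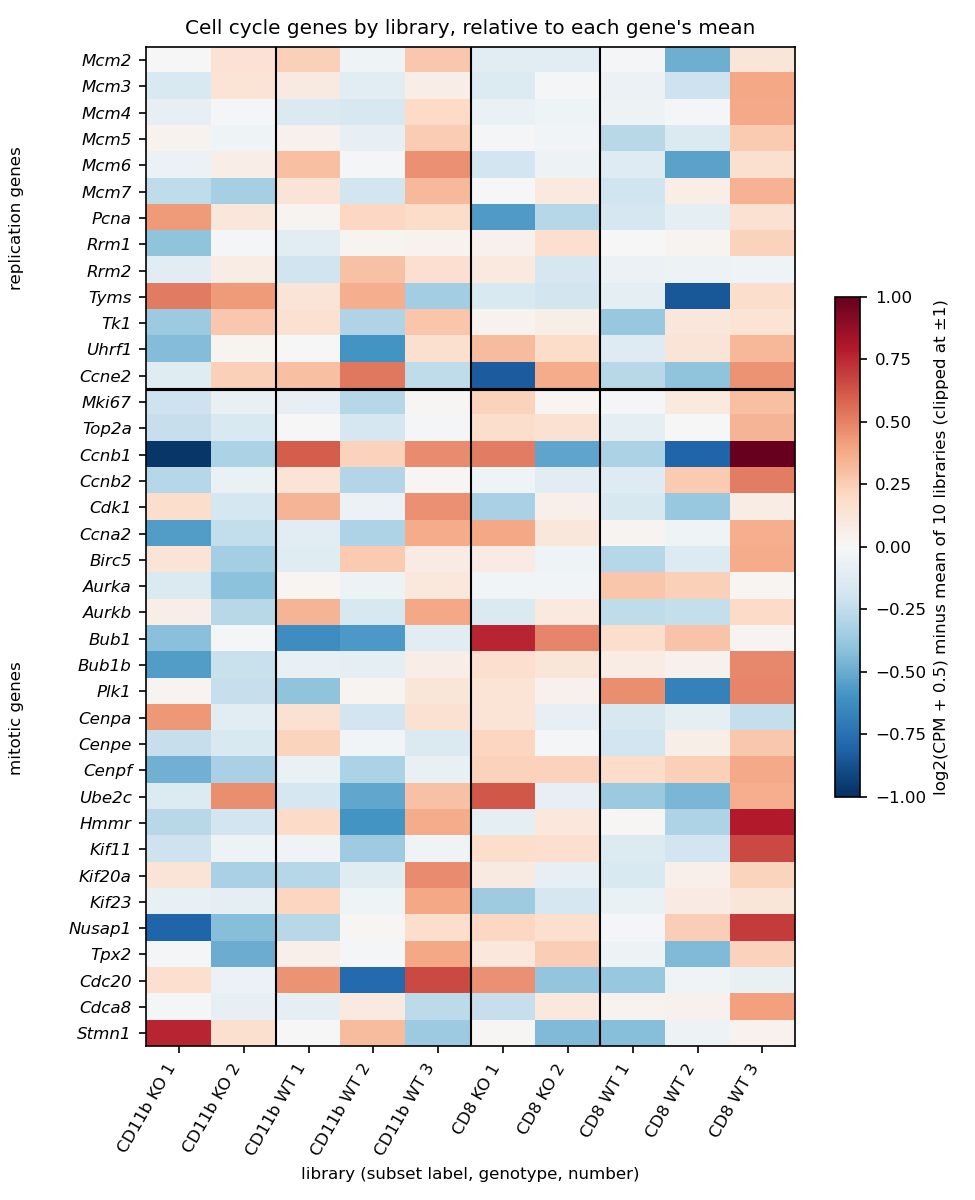
Level of each of the 38 genes (rows, replication genes above mitotic genes) in each of the 10 libraries (columns, in 4 groups), as log2(CPM + 0.5) minus the mean of the gene over the libraries, with colours clipped at 1 in either direction. The column of CD8 WT 3 is the highest for 19 of 38 genes, and the rows of Ccnb1, Cdc20 and Nusap1 show the largest spread.

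Summed per library, replication genes showed overlapping levels in all 4 groups. They summed to 768 and 853 CPM in CD11b KO 1 and 2, to 872, 785 and 953 CPM in CD11b WT 1 to 3, to 787 and 819 CPM in CD8 KO 1 and 2, and to 767, 727 and 989 CPM in CD8 WT 1 to 3. Mitotic genes summed to 1503 and 1534 CPM in CD11b KO, 1675, 1466 and 1794 CPM in CD11b WT, 1895 and 1753 CPM in CD8 KO, and 1628, 1713 and 2093 CPM in CD8 WT. KO and WT overlapped at each label in both sums. The highest replication sums were in the WT libraries numbered 3, and the highest mitotic sums in CD8 WT 3 and CD8 KO 1. CD8 WT 3 held the highest level of its group for 34 of the 38 genes.

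The ratio of mitotic to replication sums separated the subset labels. It was 1.96 and 1.80 in CD11b KO, and 1.92, 1.87 and 1.88 in CD11b WT. At the label CD8 it was 2.41 and 2.14 in CD8 KO, and 2.12, 2.35 and 2.12 in CD8 WT. The 5 libraries labelled CD11b lay at 1.80 to 1.96 and the 5 labelled CD8 at 2.12 to 2.41. Without Mki67, the most abundant mitotic gene, the ranges were 1.14 to 1.29 and 1.37 to 1.53. On a scale that weights every gene alike, mitotic minus replication mean log2(CPM + 0.5), the ranges overlapped, at −0.75 to −0.47 and −0.49 to −0.23, so the separation belongs to sums in which the abundant genes weigh most. The ratio is a description without a test.

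**Figure D2:**
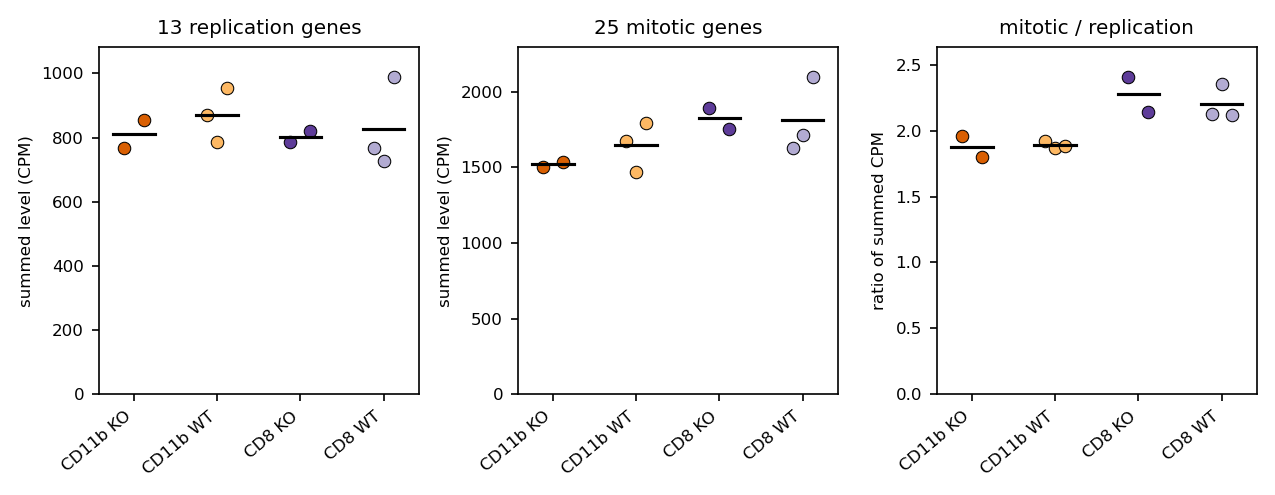
Summed CPM of the 13 replication genes (left), of the 25 mitotic genes (middle) and the ratio of the sums (right), with 1 point per library and a bar at the mean of each group. Sums overlap between KO and WT at each label, while the ratio is 1.80 to 1.96 in the 5 libraries labelled CD11b and 2.12 to 2.41 in the 5 labelled CD8.

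Transcripts of other cell types are given beside these sums. Erythroid markers (9 genes) summed to 23.2 CPM in CD11b WT 3 and 21.3 CPM in CD8 WT 3, the libraries with the highest replication sums, and to 3.24 to 7.57 CPM in the other 8. Within those 8 the order of the erythroid sums was not that of the replication sums. Klf1 had no count in any library labelled CD8, and Hba-a2 had none in CD11b KO. B cell markers (9 genes, none at 0 in a group) summed to 271 to 609 CPM in CD11b KO, 275 to 355 CPM in CD11b WT, 1016 to 2717 CPM in CD8 KO and 562 to 1128 CPM in CD8 WT. The highest B cell sum was in CD8 KO 2, whose mitotic sum was below that of CD8 KO 1. Plasma cell markers (6 genes) summed to 13.9 to 26.9 CPM in CD11b KO, 10.6 to 18.0 CPM in CD11b WT, 64.4 to 113 CPM in CD8 KO and 42.7 to 61.8 CPM in CD8 WT, with Tnfrsf17 at 0 in both WT groups. Red pulp macrophage markers (8 genes, none at 0) summed to 172 to 192 CPM in CD11b KO, 139 to 176 CPM in CD11b WT, 406 CPM in both CD8 KO libraries and 244 to 324 CPM in CD8 WT. The part of such cells in the levels of the 38 genes was not tested.

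At the label CD11b, none of the replication or mitotic genes passed the test between KO and WT. With edgeR's quasi-likelihood test and Benjamini-Hochberg adjustment over all genes, 0 of 38 had an adjusted p under 0.05, against 0.145% of all genes tested, and DESeq2 and limma-voom also called 0. At an unadjusted p under 0.05 stood 6 of 38, 1 replication and 5 mitotic, against 6.42% of all genes. This count was 1 without CD11b WT 3 and 8 without CD11b WT 2. Most estimates were negative, in 11 of 13 replication genes (median log2 fold change −0.08) and 19 of 25 mitotic genes (median −0.18), while the median of all genes was −0.0073. The medians depended on single libraries. Without CD11b WT 3 they were 0.0061 for replication and −0.11 for mitotic genes, and the replication median was −0.00082 without CD11b KO 1, −0.21 without CD11b KO 2 and −0.16 without CD11b WT 2. Libraries of KO and WT did not overlap for 1 gene that was higher in KO (10.3% of all genes) and 8 that were lower (10.1% of all genes).

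The spindle gene Nusap1, which bundles microtubules, had the smallest p of the mitotic genes. It stood at 21.6 and 28.2 CPM in CD11b KO 1 and 2 and at 31.2, 38.3 and 43.0 CPM in CD11b WT 1 to 3, a log2 change of −0.59 ± 0.21 (SE; adjusted p = 0.615 by edgeR). Both KO libraries were below all 3 WT libraries. Bub1b had 41.6 and 52.5 CPM in CD11b KO and 58.2, 57.6 and 64.5 CPM in CD11b WT, a log2 fold change of −0.35 ± 0.16. Kif23, a motor of the central spindle, had 94.2 and 92.7 CPM in CD11b KO and 115, 96.6 and 129.7 CPM in CD11b WT, with −0.28 ± 0.13. For these 2 genes too the groups did not overlap, and their edgeR adjusted p values were 0.739 and 0.773.

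Among replication genes, Mcm7 had 43.3 and 41.0 CPM in CD11b KO and 56.6, 45.5 and 64.8 CPM in CD11b WT, a log2 change of −0.40 ± 0.17 (SE; adjusted p = 0.726 by edgeR). The groups did not overlap. Mcm6 had −0.25 ± 0.16 and overlapping groups, with 115 and 126 CPM in CD11b KO and 147, 118 and 165 CPM in CD11b WT. Tyms pointed the other way, with 18.1 and 16.9 CPM in CD11b KO, 13.7, 16.1 and 9.67 CPM in CD11b WT and a log2 fold change of 0.41 ± 0.31 (edgeR adjusted p = 0.882). Mki67 differed by −0.02 ± 0.11, Top2a by −0.13 ± 0.12, Mcm2 by −0.09 ± 0.15, Pcna by 0.14 ± 0.20 and Cdk1 by −0.26 ± 0.27 (SE). The 95% interval lay within a 2-fold change in either direction for 33 of 38 genes, against 50.5% of all genes tested. Wider intervals belonged to Tyms, Ccne2, Ccnb1, Nusap1 and Stmn1, and that of Ccnb1 ran from −3.45 to 0.58.

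At the label CD8 too, none of the 38 genes passed the test between KO and WT. By edgeR 0 of 38 were called, against 0.145% of all genes, as by DESeq2 and limma-voom, and 1 had an unadjusted p under 0.05, against 6.52% of all genes. Positive and negative estimates were even, 19 each, and the medians were 0.0066 for replication and −0.0035 for mitotic genes. With 1 library left out they ran from −0.14 without CD8 WT 2 to 0.13 without CD8 WT 3 for replication genes, and from −0.083 without CD8 KO 1 to 0.15 without CD8 WT 3 for mitotic genes. Mki67 had a log2 fold change of −0.0035 ± 0.11 with a 95% interval of −0.23 to 0.22, and Mcm2 −0.0034 ± 0.15. Top2a had 0.07 ± 0.12 and Cdk1 0.02 ± 0.27.

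Kif23 was the gene with an unadjusted p under 0.05. It stood at 77.4 and 88.5 CPM in CD8 KO 1 and 2 and at 95, 105 and 108 CPM in CD8 WT 1 to 3, a log2 change of −0.31 ± 0.13 (SE; adjusted p = 0.679 by edgeR). Its estimate was thus negative at both labels, with no overlap at either, and passed the threshold at neither. Pcna had 17.0 and 20.7 CPM in CD8 KO and 22.6, 23.7 and 28.3 CPM in CD8 WT, a log2 fold change of −0.40 ± 0.21 (edgeR adjusted p = 0.799), again without overlap. Bub1 had 19.8 and 16.3 CPM in CD8 KO and 13.1, 14.1 and 11.7 CPM in CD8 WT, a log2 fold change of 0.48 ± 0.28 (edgeR adjusted p = 0.856), also without overlap. Groups overlapped for Ube2c (0.43 ± 0.28), Mcm4 (−0.17 ± 0.15) and Mcm3 (−0.14 ± 0.14). No overlap was seen for 2 genes higher in KO (12.1% of all genes) and 3 lower (11.9%). The interval lay within 2-fold for 32 of 38 genes, against 51% of all genes, and reached outside for Ccne2, Ccnb1, Bub1, Ube2c, Cdc20 and Stmn1.

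The genotype effect did not pass the test for a difference between the labels in any of the 38 genes. The interaction term of the edgeR model, label CD11b minus label CD8, called 0 of 38, against 0.0206% of all genes. At an unadjusted p under 0.05 it held 1 of 38, against 5.46%, and DESeq2 and limma-voom called 0. With 1 library left out the count at an unadjusted p ran from 0, without CD11b WT 3 or CD8 WT 2, to 6, without CD8 WT 3. That gene was Tpx2, an activator of Aurora A on the spindle, with a difference of −0.63 ± 0.26 (SE; edgeR adjusted p = 0.866). It had 57.9 and 41.4 CPM in CD11b KO, 60.7, 57.7 and 76.8 CPM in CD11b WT, 63.2 and 69.6 CPM in CD8 KO and 56.7, 43.0 and 69.0 CPM in CD8 WT, with overlap at both labels. The next mitotic genes by p were Ccna2 (−0.54 ± 0.27) and Nusap1 (−0.43 ± 0.29). Of the replication genes, Pcna had a difference of 0.53 ± 0.29, Mcm7 of −0.36 ± 0.24 and Mcm6 of −0.27 ± 0.23. Intervals of the difference lay within 2-fold for 24 of 38 genes, against 38.3% of all genes.

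**Figure D3:**
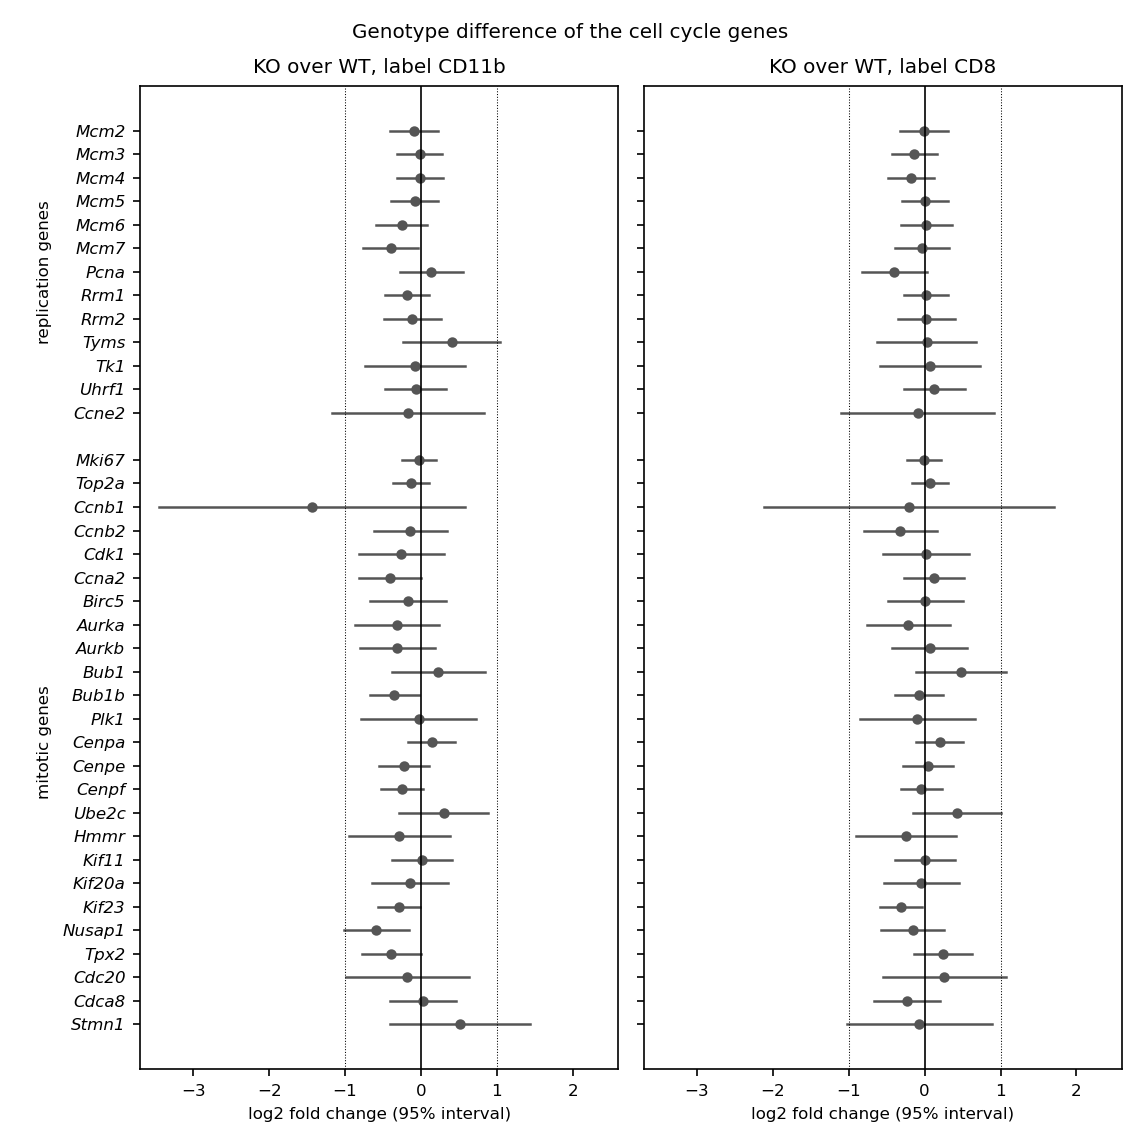
Log2 fold change of KO over WT for each of the 38 genes at the label CD11b (left) and the label CD8 (right), with 95% intervals from the edgeR model and dotted lines at a 2-fold change. At the label CD11b 30 of 38 points lie left of 0, and at the label CD8 19 of 38. None passed an adjusted p of 0.05.

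Between the subset labels within KO, 5 mitotic genes were lower and 1 replication gene was higher at the label CD11b. These 6 of 38 (15.8%) stand beside 22.8% of all genes tested, 10.3% higher and 12.5% lower. Cenpf, Nusap1, Bub1b, Ccna2 and Top2a were the lower ones and Pcna the higher one. The median log2 fold change was −0.25 over the 25 mitotic genes, 21 of them negative, and 0.02 over the 13 replication genes, against −0.0079 over all genes. With 1 library left out the mitotic median ran from −0.29 without CD8 KO 2 to −0.16 without CD8 KO 1, and the replication median from −0.02 without CD11b KO 2 to 0.19 without CD11b KO 1. Groups did not overlap for 5 genes higher (28.1% of all genes) and 16 lower (30.6% of all genes).

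Cenpf (ENSMUSG00000026605, chromosome 1, 189640606 to 189688086, GRCm38) encodes a large kinetochore protein that accumulates before mitosis. It stood at 52.6 and 58.9 CPM in CD11b KO 1 and 2 and at 86.3 and 86.4 CPM in CD8 KO 1 and 2, with no overlap. The means were 55.7 ± 4.48 and 86.4 ± 0.0648 CPM (SD, n = 2 each), and the log2 fold change was −0.63 ± 0.15 (SE; edgeR adjusted p = 0.00215). Its call held when each library was left out in turn. Nusap1 (ENSMUSG00000027306, chromosome 2, 119618298 to 119651244) had 21.6 and 28.2 CPM in CD11b KO and 44.0 and 42.5 CPM in CD8 KO, a log2 fold change of −0.79 ± 0.22 (edgeR adjusted p = 0.0111). Both CD8 KO libraries were above both CD11b KO libraries.

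Bub1b (ENSMUSG00000040084, chromosome 2, 118598211 to 118641591) had 41.6 and 52.5 CPM in CD11b KO and 69.1 and 66.8 CPM in CD8 KO, a log2 change of −0.53 ± 0.17 (SE; adjusted p = 0.0255 by edgeR). Ccna2 (ENSMUSG00000027715, chromosome 3, 36564865 to 36572150), the cyclin of late synthesis and early mitosis, had 31.5 and 39.2 CPM in CD11b KO and 60.9 and 50.5 CPM in CD8 KO, with −0.65 ± 0.21 (edgeR adjusted p = 0.0272). Top2a (ENSMUSG00000020914, chromosome 11, 98992943 to 99024189) had a log2 fold change of −0.36 ± 0.13 from the levels given above (edgeR adjusted p = 0.0464). In none of the 3 did the groups overlap.

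Pcna (ENSMUSG00000027342, chromosome 2, 132249162 to 132253314) was the replication gene that was higher. It had 34.3 and 27.6 CPM in CD11b KO and 17.0 and 20.7 CPM in CD8 KO, a log2 change of 0.71 ± 0.22 (SE; adjusted p = 0.023 by edgeR). Uhrf1 and Rrm1, next by p, had −0.44 ± 0.21 and −0.30 ± 0.15 (edgeR adjusted p = 0.164 and 0.18). Mki67 had −0.27 ± 0.12 (edgeR adjusted p = 0.116) without overlap, Mcm2 0.19 ± 0.17 and Cdk1 0.14 ± 0.30. With 2 libraries per group, leaving out a KO library leaves 1 at a label and takes it to vary like the other groups. Every call but that of Cenpf ended in such a setting. The call of Top2a also ended without CD11b WT 3 or CD8 WT 2, where both KO libraries of each label were kept. Without CD11b KO 1 the adjusted p was 0.191 for Pcna, 0.137 for Nusap1, 0.254 for Bub1b, 0.22 for Ccna2 and 0.204 for Top2a (edgeR), and without CD8 KO 1 it was 0.195, 0.0605, 0.118, 0.217 and 0.159. Directions were kept, and without CD11b KO 1 the log2 fold changes were 0.55 for Pcna, −0.62 for Nusap1, −0.37 for Bub1b, −0.51 for Ccna2 and −0.31 for Top2a. Bub1b also lost its call without CD8 KO 2 (edgeR adjusted p = 0.075). Top2a lost it without CD11b KO 2, CD8 KO 2, CD11b WT 3 or CD8 WT 2 (edgeR adjusted p = 0.0978, 0.132, 0.0584 and 0.0625). The interval lay within 2-fold for 29 of 38 genes, against 34.3% of all genes.

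Within WT, 1 mitotic gene was lower and 1 replication gene higher at the label CD11b. The 2 of 38 called (5.26%) stand beside 29.5% of all genes tested, 13.8% higher and 15.7% lower. The median size of the log2 fold change, in either direction, was 0.21 over the 38 genes and 0.52 over all genes. The interval lay within 2-fold for 33 of 38 genes, against 39% of all genes. The list and all genes were not matched on level. The median was −0.12 for the mitotic genes, 14 of 25 negative, and 0.11 for the replication genes, 9 of 13 positive, against 0.0032 over all genes. With 1 library left out the mitotic median ran from −0.20 without CD11b WT 3 to 0.09 without CD8 WT 3, and the replication median from 0.0017 without CD8 WT 1 to 0.18 without CD8 WT 3. Groups did not overlap for 0 genes higher (19.8% of all genes) and 2 lower (21.7%), Cenpf and Bub1.

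Cenpf was again the mitotic gene that passed, with 70.4, 59.1 and 70.1 CPM in CD11b WT 1 to 3 and 83.9, 87.0 and 95.9 CPM in CD8 WT 1 to 3. The means were 66.5 ± 6.46 and 88.9 ± 6.20 CPM (SD, n = 3 each), a log2 change of −0.42 ± 0.12 (SE; adjusted p = 0.0084 by edgeR). All CD11b WT libraries were below all CD8 WT libraries. Without CD11b WT 2 the adjusted p was 0.0513, and without both libraries numbered 3, an alternative added after the values were seen, it was 0.0566 (edgeR). Bub1, with 7.29, 7.54 and 10.6 CPM in CD11b WT and 13.1, 14.1 and 11.7 CPM in CD8 WT, had −0.62 ± 0.26 and did not pass (edgeR adjusted p = 0.0837). Mki67 stood at the edge of the test, with −0.25 ± 0.10 and an edgeR adjusted p of 0.0568, while DESeq2 gave 0.0405 and limma-voom 0.0437. It passed without CD11b WT 3 or CD8 WT 1 (edgeR adjusted p = 0.0377 and 0.0257). Top2a had −0.15 ± 0.10 and Cdk1 0.42 ± 0.24.

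Mcm6 (ENSMUSG00000026355, chromosome 1, 128331590 to 128359664) was the replication gene that passed in WT. It had 147, 118 and 165 CPM in CD11b WT and 109.7, 82.3 and 134 CPM in CD8 WT, so the groups overlapped, with a log2 change of 0.40 ± 0.14 (SE; adjusted p = 0.0395 by edgeR). Its call ended without CD11b WT 1, CD11b WT 3, CD8 WT 1 or CD8 WT 2 (edgeR adjusted p = 0.0882, 0.203, 0.0758 and 0.223). Mcm2, its partner in the helicase, had 109.6, 89.9 and 112 CPM in CD11b WT and 91.6, 65.9 and 101 CPM in CD8 WT, a log2 fold change of 0.27 ± 0.14 (edgeR adjusted p = 0.153), and 0.0477 without CD8 WT 3. Uhrf1 had −0.24 ± 0.17 and Pcna 0.18 ± 0.18 (edgeR adjusted p = 0.35 and 0.529).

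The subset comparisons in KO and in WT use separate libraries. Of the 25 mitotic genes 14 were lower at the label CD11b in both, 4 were higher in both and 7 changed sign, and of the 13 replication genes 2 were lower in both, 7 higher in both and 4 changed sign. Over all genes tested 75.7% had the same sign in both, against 72% of mitotic and 69.2% of replication genes. Cenpf was called in both. That Nusap1, Bub1b, Ccna2, Top2a and Pcna were called in KO and not in WT is not shown to be a difference, since the interaction term called none of the 38.

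**Figure D4:**
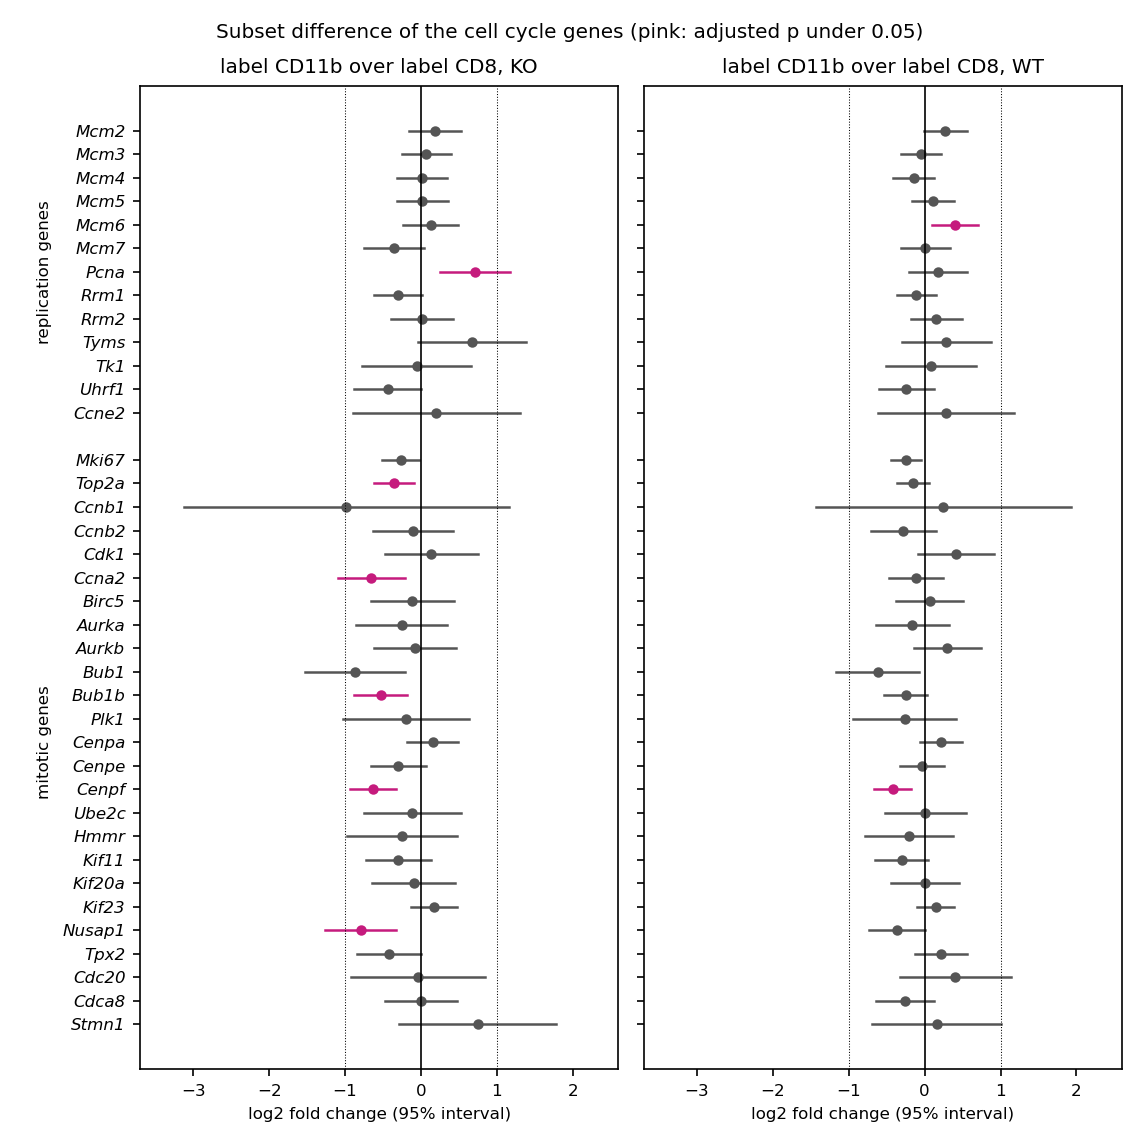
Log2 fold change of the label CD11b over the label CD8 for each of the 38 genes within KO (left) and within WT (right), with 95% intervals from the edgeR model and dotted lines at a 2-fold change. Coloured points passed an adjusted p of 0.05, 6 in KO and 2 in WT, and Cenpf lies left of 0 in both panels.

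Other genes of the same machinery, 39 for replication and 50 for mitosis, were read from lists outside the 38. Between KO and WT 0 of 39 and 0 of 50 were called at either label, and 0 for the difference of effects, by edgeR, DESeq2 or limma-voom. At an unadjusted p under 0.05 edgeR had 3 replication and 3 mitotic genes at the label CD11b, 2 and 1 at the label CD8, and 1 and 1 for the difference, against 6.42%, 6.52% and 5.46% of all genes. At the label CD11b, Rfc2, a subunit of the clamp loader, had 28.3 and 26.6 CPM in KO and 43.1, 34.5 and 48.7 CPM in WT, a log2 change of −0.62 ± 0.18 (SE; adjusted p = 0.398 by edgeR). Cdc45, which activates the MCM helicase, had 24.8 and 25.7 CPM in KO and 18.4, 12.4 and 18.0 CPM in WT, with 0.63 ± 0.24 (edgeR adjusted p = 0.648), and Cdca5, which guards sister cohesion, had −1.32 ± 0.47 (edgeR adjusted p = 0.615). At the label CD8, Melk, a kinase of cycling cells, had 13.4 and 11.8 CPM in KO and 19.1, 20.8 and 22.6 CPM in WT, with −0.73 ± 0.25 (edgeR adjusted p = 0.49). Timeless, of the fork protection complex, had −0.47 ± 0.16 there (edgeR adjusted p = 0.505). None of these 5 passed the test. Their groups did not overlap, but they were named for a small p, so this adds no support. At the label CD11b, 1 of the 39 replication genes was higher in KO without overlap and 12 were lower. Of the 50 mitotic genes 2 were higher and 9 lower, against 10.3% and 10.1% of all genes. At the label CD8 it was 3 and 5 replication and 2 and 6 mitotic genes, against 12.1% and 11.9%.

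Between the labels, edgeR called 1 higher and 2 lower of the 39 replication genes within KO, and 2 higher and 3 lower within WT. Pola1, the catalytic subunit of the primase polymerase, was lower at the label CD11b in both, with 38.2 and 30.8 CPM in CD11b KO and 56.2 and 56.5 CPM in CD8 KO (−0.71 ± 0.17, edgeR adjusted p = 0.00257). In WT it had 40.3, 41.2 and 45.4 CPM at the label CD11b and 56.7, 55.1 and 60.6 CPM at the label CD8 (−0.44 ± 0.13, edgeR adjusted p = 0.0146). Gins2, of the GINS complex that joins the helicase, was higher in both, at 1.22 ± 0.37 in KO and 0.83 ± 0.30 in WT (edgeR adjusted p = 0.0172 and 0.0377). Rfc2 was lower in KO (−0.79 ± 0.20), and Slbp and Gins3 were lower in WT (−0.42 ± 0.13 and −1.37 ± 0.44), while Dut, which removes dUTP, was the other gene higher in WT. Leaving out CD8 KO 2 ended the calls of Rfc2 and Gins2 in KO (edgeR adjusted p = 0.0676 and 0.189), leaving out CD11b KO 1 also ended that of Gins2 (0.128), and leaving out CD11b KO 2 ended that of Pola1 (0.0567). In WT, leaving out CD8 WT 3 ended the calls of Pola1, Slbp, Gins3 and Gins2 (edgeR adjusted p = 0.0588, 0.0805, 0.0676 and 0.103). The WT call of Gins2 ended without any WT library other than CD11b WT 2 (edgeR adjusted p from 0.0643 to 0.188), with no filter on low counts (0.069) and with counts of both strands (0.113). Slbp also lost its call without CD11b WT 1 (0.0955), and Gins3 without CD11b WT 1, CD11b WT 2 or CD8 WT 2 (0.0851, 0.0506 and 0.0742 by edgeR).

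Of the 50 further mitotic genes, 3 were lower and 0 higher at the label CD11b within KO, and 3 were lower and 1 higher within WT. Espl1, the protease separase, had 29.3 and 25 CPM in CD11b KO and 53.0 and 45.5 CPM in CD8 KO (−0.86 ± 0.23), and in WT 28.2, 22.0 and 36.7 CPM at the label CD11b and 40.6, 53.5 and 61.4 CPM at the label CD8 (−0.84 ± 0.19). The edgeR adjusted p was 0.00708 and 0.00104. Ccnf, a cyclin that targets proteins for degradation, had −1.15 ± 0.30 in KO and −1.0 ± 0.24 in WT (edgeR adjusted p = 0.00546 and 0.00219), and neither gene overlapped between labels. Smc4, a subunit of condensin, was lower in WT (−0.38 ± 0.11), Kif18a was lower in KO (−1.48 ± 0.53) and Cks1b was higher in WT (1.23 ± 0.34). These calls, from 6% to 12.8% of a list, stand beside 22.8% of all genes in KO and 29.5% in WT. In KO the calls of Ccnf and Espl1 ended without CD11b KO 2 (edgeR adjusted p = 0.097 and 0.0821) or CD8 KO 1 (0.0769 and 0.0751). Kif18a lost its call with limma-voom (adjusted p = 0.0805), and by edgeR with no filter (0.0653), with only the libraries compared (0.0579), and without CD11b KO 1, CD8 KO 2 or any CD8 WT library (0.307, 0.369 and 0.0556 to 0.0585). Smc4 lost it without CD11b WT 1 or CD8 WT 3 (edgeR adjusted p = 0.0718 and 0.0715), and Cks1b without CD11b WT 3 (0.0748). Prc1, of the same list, had means of 15.8 CPM in CD11b KO and 28.6 CPM in CD8 KO and was not called. It was called lower in KO with limma-voom (adjusted p = 0.0446). By edgeR it was called with no filter (0.0139), with only the libraries compared (0.0326) and with either replicate block (0.0427 on the number, 0.00722 on genotype and number).

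Some regulators of cell cycle entry and arrest, among them the D cyclins and p21, differed between the labels. Of 36 listed, 35 were tested. By edgeR 12 of 35 (34.3%) were called within KO, 3 higher and 9 lower at the label CD11b, and 16 of 35 (45.7%) within WT, 3 higher and 13 lower, against 22.8% and 29.5% of all genes. Cdk4 and E2f3 were among those called higher in WT, with means of 51.1 and 23.7 CPM in CD11b WT against 36.8 and 14.8 CPM in CD8 WT. E2f4 and Tfdp2 were among those higher in KO, with 119 and 20.6 CPM in CD11b KO against 87.4 and 9.92 CPM in CD8 KO. The D cyclins, which start the cycle in answer to growth signals with Cdk4 and Cdk6, were lower at the label CD11b. Ccnd2 had 13.1 and 16.5 CPM in CD11b KO and 129 and 141 CPM in CD8 KO, a log2 change of −3.18 ± 0.21 (SE; adjusted p = 3.45e-11 by edgeR). In WT it had 14.7, 11.5 and 19.5 CPM at the label CD11b and 121, 98.5 and 96.0 CPM at the label CD8, with −2.79 ± 0.17 (edgeR adjusted p = 3.96e-12). All libraries labelled CD8 were above all labelled CD11b.

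Ccnd1 had 159 and 205 CPM in CD11b KO and 517 and 472 CPM in CD8 KO (−1.44 ± 0.12), and in WT 167, 179.8 and 183 CPM at the label CD11b and 527, 520.4 and 523 CPM at the label CD8 (−1.57 ± 0.10). Cdkn1a, the inhibitor p21 that halts the cycle, was lower at the label CD11b too, with 26.7 and 31.2 CPM in CD11b KO and 127 and 127 CPM in CD8 KO (−2.13 ± 0.18). In WT it had 22.8, 36.7 and 33.2 CPM at the label CD11b and 124, 133 and 135 CPM at the label CD8 (−2.09 ± 0.14). The edgeR adjusted p of Ccnd1 and Cdkn1a was 2.38e-09 or less in each of the 4 tests.

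Lin54, the DNA-binding subunit of MuvB that contacts the CHR, had 50.4, 50.7 and 54.6 CPM in CD11b WT and 111, 112 and 109.7 CPM in CD8 WT, with −1.10 ± 0.12 (SE; edgeR adjusted p = 1.11e-07). Mxd1, an antagonist of Myc, had 214 and 185 CPM in CD11b KO and 443 and 474 CPM in CD8 KO, with −1.20 ± 0.15 (edgeR adjusted p = 1.26e-06). Chosen after their values were seen, Rb1, Myc, E2f2 and Ccnd3 were also lower at the label CD11b in both genotypes. Their log2 fold changes in KO and WT were −1.15 and −1.07 for Rb1, −1.79 and −1.36 for Myc, −1.96 and −1.76 for E2f2, and −0.83 and −0.62 for Ccnd3. The plasma cell and red pulp macrophage sums given above were also lower in all libraries labelled CD11b than in all labelled CD8. So were monocyte markers (4 genes), at 22.0 to 31.6 CPM against 41.5 to 87.0 CPM. T cell markers (6 genes, some at 0 in each group) were too, at 7.74 to 13.8 CPM against 14.6 to 21.1 CPM. B cell sums were 271 to 609 CPM at the label CD11b and 562 to 2717 CPM at the label CD8. They overlapped only in that CD11b KO 2 (609 CPM) lay above CD8 WT 3 (562 CPM). Sums of erythroid, NK cell, neutrophil and plasmacytoid dendritic cell markers overlapped between the labels. The part of such cells in these differences was not tested.

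Between KO and WT, edgeR called 0 of the 35 regulators at either label, with 2 at the label CD11b and 3 at the label CD8 at an unadjusted p under 0.05. Over all genes 0.145% were called at each label, and 6.42% and 6.52% had an unadjusted p under 0.05. DESeq2 called 0, and limma-voom called 1 at the label CD8 (0.434% of all genes), Btg2, an antiproliferative gene (adjusted p = 0.0351). Btg2 had 1494 and 1286 CPM in CD8 KO and 1809, 1677 and 1602 CPM in CD8 WT, a log2 change of −0.29 ± 0.09 (SE; adjusted p = 0.398 by edgeR). The groups did not overlap, which held at this label for 3 regulators higher in KO and 3 lower (12.1% and 11.9% of all genes). E2f4, a repressor E2F, had 117 and 122 CPM in CD11b KO and 93.1, 96.3 and 98.4 CPM in CD11b WT. Its log2 fold change of 0.31 ± 0.12 did not pass (edgeR adjusted p = 0.669).

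**Figure D5:**
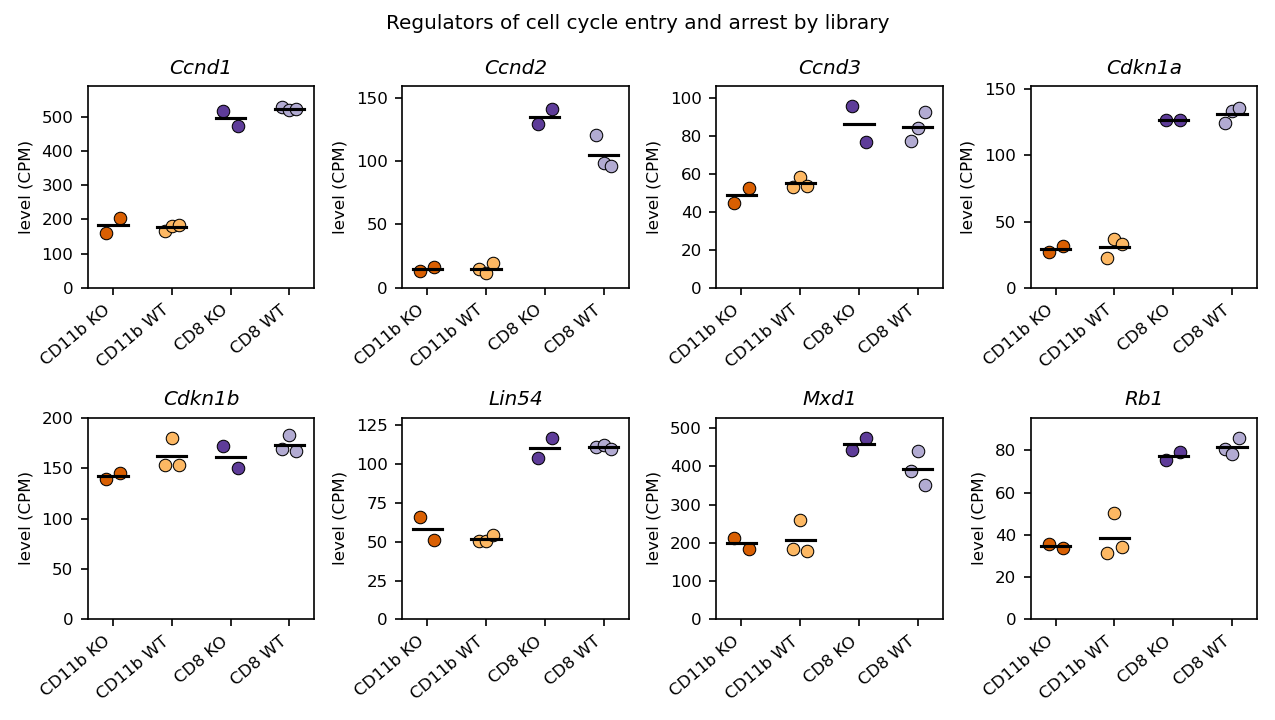
Levels in CPM of 8 regulators of cell cycle entry and arrest, with 1 point per library and a bar at the mean of each group, and each axis starting at 0. Ccnd1, Ccnd2, Ccnd3, Cdkn1a, Lin54, Mxd1 and Rb1 lie higher in all 5 libraries labelled CD8 than in all 5 labelled CD11b, whereas those of Cdkn1b overlap.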

How the data were processed

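The authors deposited raw counts per gene for each of the 10 libraries, with 53379 genes in each file. Per the submitters' processing notes, STAR 2.5.0a and GRCm38 were used. The annotation release, trimming and handling of duplicates are not given in the sources used here. Libraries were made from total RNA with a stranded kit for small inputs, per the labels' protocols, and the strand column used held 16.1 times the gene counts of the opposite one. Reads that map to several places (21.73% to 25.53%) went to no gene. Symbols came from GENCODE for GRCm38, which held 53274 of the gene identifiers. Lengths per kb are those of all annotated exons of a gene merged.

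Genes were filtered with filterByExpr, leaving 14528. In edgeR 4.0.16 (R 4.3.3, TMM), the 10 libraries shared 1 quasi-likelihood fit with a mean for each of 4 groups (6 residual and 16.1 prior degrees of freedom). P-values were adjusted by Benjamini-Hochberg over all genes tested and called under 0.05. Each SE is the size of the log2 fold change over the square root of F. The model was run on counts simulated with known changes from its own estimates of the spread. This does not check the model on these data. The p-values measure the spread between libraries of individual mice, and whether a mouse gave both subsets is not given in the sources used here. Correlations of deviations between libraries that share a number were 0.018 to 0.049. They were not set beside those of libraries with different numbers, so they cannot tell whether a number marks a pair. The main fit did not treat numbers as pairs, and replicate blocks were run as alternatives.

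Alternatives were RLE size factors, no filter, counts of both strands, 1 CPM in at least 3 libraries, leaving out genes of ribosomal RNA, mitochondria or other cell types, limma-voom with quality weights (limma 3.58.1), DESeq2 1.42.0, only the libraries compared, libraries left out and replicate blocks. The members, the lists and the rule for named genes (fixed markers Mki67, Top2a, Cdk1, Pcna and Mcm2, called members by p or the 3 smallest p per list, and at most 4 from each further list) were chosen with earlier results of these data known. The level of 1 marker gene is not reported here.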

Additional observations from a re-analysis of the deposited data

How the results depend on the processing

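Counts of called members were 0 for both genotype comparisons and for their difference under every alternative run, with edgeR, DESeq2 and limma-voom. In the subset comparison within WT, the 1 called replication gene ranged from 0 to 2 when libraries were left out one at a time, and was 0 with CD11b WT 1 and CD8 KO 2 removed together. The 1 called mitotic gene there became 2 with no filter, DESeq2 or limma-voom, 0 without both libraries numbered 3 (added after seeing the data), and 0 to 3 when 1 library was left out. A replicate block on the number, or on genotype and number, gave 2, Mki67 having passed (edgeR adjusted p = 0.0287 and 0.0179). Within KO, leaving out 1 library gave 0 to 1 replication genes against 1, and 1 to 6 mitotic genes against 5. Removing CD11b WT 1 and CD8 KO 2 together gave 3 mitotic genes. The replicate blocks changed no other count of called members. The counts in 203 of 224 recalculations stayed within 1.5 times the reported one, and 21 did not. The 203 include every recalculation of the genotype comparisons and of their difference, where the count stayed at 0. All 21 that moved were counts of the subset comparisons. Among 2486 recalculations of named genes, 70 lost a call and 22 gained one. None changed sign where the gene was called in the main fit or in the alternative. Changes of sign in genes called in neither were not counted. Of the medians, the mitotic one within WT was 0.09 without CD8 WT 3 and the replication one within KO was 0.19 without CD11b KO 1. The cause of these changes was not tested. Between KO and WT, the intervals of Ccnb1 (5 to 40 counts per library), Ccne2 and Stmn1 reached beyond 2-fold at both labels.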
